A study of Mus musculus with 6 samples.

Results

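Immediate early genes are those whose transcripts rise within minutes of a stimulus, with no need for new protein. The 10 followed here are Fos, Fosb, Fosl2, Jun, Junb, Jund, Egr1, Atf3, Klf2 and Ier2, measured in RNA of mouse pancreatic islets on 1-colour Affymetrix arrays. Members were taken as every probe set (a group of short probes for 1 transcript) whose platform annotation gives 1 of these symbols alone. That found 13 probe sets for 10 of 10 genes, among 45037 probe sets and 18193 named genes in all. Fosl2, Jun and Jund have more than 1 probe set each.

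The study compared islets of 8-week-old mice on a mixed SV 129/C57BL/6 background in 2 groups of 3 arrays, each array a different animal. Mice labelled knockout were Pdx1Cre;PPARbetafl/fl, that is, both Ppard alleles floxed and Cre recombinase driven by Pdx1, a gene that all lineages of the pancreas express early in development. Their control littermates were PPARbetafl/fl without Cre, so both groups carried the floxed alleles and 0 arrays carried Cre with intact Ppard. Islets came from collagenase digestion and a Histopaque gradient. The protocol, worded the same for all 6 arrays, also mentions islet perifusion and RNA of islets or pancreas, without saying how long these islets were held before RNA was taken or whether they were perifused. The arrays are called knockout 1 to 3 and control 1 to 3, after the replicate numbers in the sample titles.

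The products of Fos, Fosb and Fosl2 pair with those of Jun, Junb and Jund to form AP-1, a DNA-binding transcription factor of the leucine zipper kind. Egr1 and Klf2 encode zinc finger transcription factors, Atf3 a stress-induced leucine zipper factor related to CREB, and Ier2 a small nuclear protein of the early growth response. Growth factors, calcium entry, cyclic AMP and cell stress switch these genes on through MAP kinases, serum response factor and CREB, and in beta cells glucose and cyclic AMP are known inducers.

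Promoter sequences are shown for 4 members because 3 of them (Fos, Fosb, Junb) shared a pattern across the arrays that the other one (Jun) did not show. Fosl2, whose sequence is not printed, shared that pattern too. RefSeq promoters of build GRCm38.p6 were held for 8 of the 10 members, all but Egr1 and Ier2. The 250 bases before the annotated start were searched, so sites farther upstream would be missed. Capitals mark matches on either strand to the core letters of the cyclic AMP response element (TGACG), to the AP-1 site variant of the Jun promoter (TGACATCA) and to the TATA box (TATAAA). The windows are chr12:85473640-85473889 (plus strand) for Fos, chr7:19310046-19310295 (minus) for Fosb, chr8:84978749-84978998 (minus) for Junb and chr4:95052223-95052472 (minus) for Jun, each printed 5′ to 3′ on the strand of its gene.
Fos: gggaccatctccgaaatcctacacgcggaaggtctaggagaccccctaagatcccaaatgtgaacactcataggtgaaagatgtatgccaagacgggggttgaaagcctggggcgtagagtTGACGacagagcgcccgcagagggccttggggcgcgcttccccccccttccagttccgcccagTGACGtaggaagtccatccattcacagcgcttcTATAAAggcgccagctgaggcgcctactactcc
Fosb: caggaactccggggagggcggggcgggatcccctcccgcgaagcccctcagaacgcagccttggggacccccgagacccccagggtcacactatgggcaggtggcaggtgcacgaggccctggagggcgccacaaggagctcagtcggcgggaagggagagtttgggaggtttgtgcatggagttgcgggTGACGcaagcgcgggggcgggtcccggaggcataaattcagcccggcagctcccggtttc
Junb: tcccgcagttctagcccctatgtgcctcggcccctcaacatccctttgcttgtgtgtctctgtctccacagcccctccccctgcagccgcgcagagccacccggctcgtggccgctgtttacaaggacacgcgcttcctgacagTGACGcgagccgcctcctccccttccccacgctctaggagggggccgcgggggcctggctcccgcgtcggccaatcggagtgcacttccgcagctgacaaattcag
Jun: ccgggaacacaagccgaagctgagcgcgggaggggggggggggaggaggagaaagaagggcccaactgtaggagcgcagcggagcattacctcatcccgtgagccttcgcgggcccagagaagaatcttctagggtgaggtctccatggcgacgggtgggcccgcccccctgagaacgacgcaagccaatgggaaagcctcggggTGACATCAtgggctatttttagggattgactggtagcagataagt

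TGACG stood in 5 of the 8 member promoters (Fos, Fosb, Junb, Atf3 and Klf2), against 25.9% of the 14452 genes on the array with a RefSeq promoter, counted per gene, and 17.8% of all 32851 RefSeq promoters of the same length. In Fos it occurred at 129 to 125 and at 66 to 62 bases before the start, and the TATA box at 33 to 28. Fosb had it at 60 to 56 bases before the start, Junb at 106 to 102, Klf2 at 241 to 237, and Atf3 on the opposite strand at 7 to 3. The Jun window held TGACATCA at 45 to 38 bases before the start, a match found in 2.93% of all promoters and in 1 of the 8. TATAAA was found in 1 of the 8 and in 12.4% of all promoters. The full element TGACGTCA, of which TGACG is a part (1.55% of all promoters), the AP-1 site TGANTCA (6.75%) and the CArG box (1.47%) were found in 0 of the 8 windows. The Fosl2 and Jund windows held no match to any motif searched. Atf3, which held TGACG, did not share the array pattern of Fos, Fosb, Junb and Fosl2. A link between TGACG and that pattern was not tested.

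Array medians lay between 5.39 and 5.49 log2 units, and pairs of arrays correlated at r between 0.978 and 0.993 over probe sets. The labels call the material beta-cells. Beta cell markers were high on all 6 arrays (mean log2 level 11.49 to 11.79 on arrays labelled knockout and 11.76 to 12.04 on control arrays, over 9 of 12 listed genes with a probe set). Gcg of alpha cells (13.79 and 13.95, means of labelled knockout and control) and Sst of delta cells (12.95 and 13.45) were high too, as in whole islets. Acinar markers were mostly digestive enzyme genes, with some others such as Ptf1a, Bhlha15 and Rbpjl. They averaged 9.14, 6.08 and 6.33 on arrays labelled knockout 1 to 3, against 7.35, 11.04 and 11.35 on controls 1 to 3. Ppard, the targeted gene, gave no lower level under the knockout label: its 2 probe sets differed by 0.49 ± 0.20 (SE) and 0.35 ± 0.11 (labelled knockout minus control, limma adjusted p = 0.377 and 0.255). The labels name no deleted exon, and probes that lie outside the deletion cannot check it. Cre and the deletion cannot be told apart. In bulk islets, fewer cells of a type and less RNA per cell cannot be told apart.

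Fos, Fosb, Fosl2, Junb, Egr1 and Atf3 varied widely between animals of the same group, and for all of these but Atf3 array 2 was the highest of both groups. On the deposited log2 scale, Fos reached 9.46 on knockout 2 and 9.88 on control 2, and stayed at 8.56 or lower on the other 4 arrays. Jun, in contrast, was higher on all 3 arrays labelled knockout than on any control array, with means 1.43-fold and 1.69-fold apart on its probe sets. Jund hardly varied. None of the 13 probe sets passed the test between groups.

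**Figure D1:**
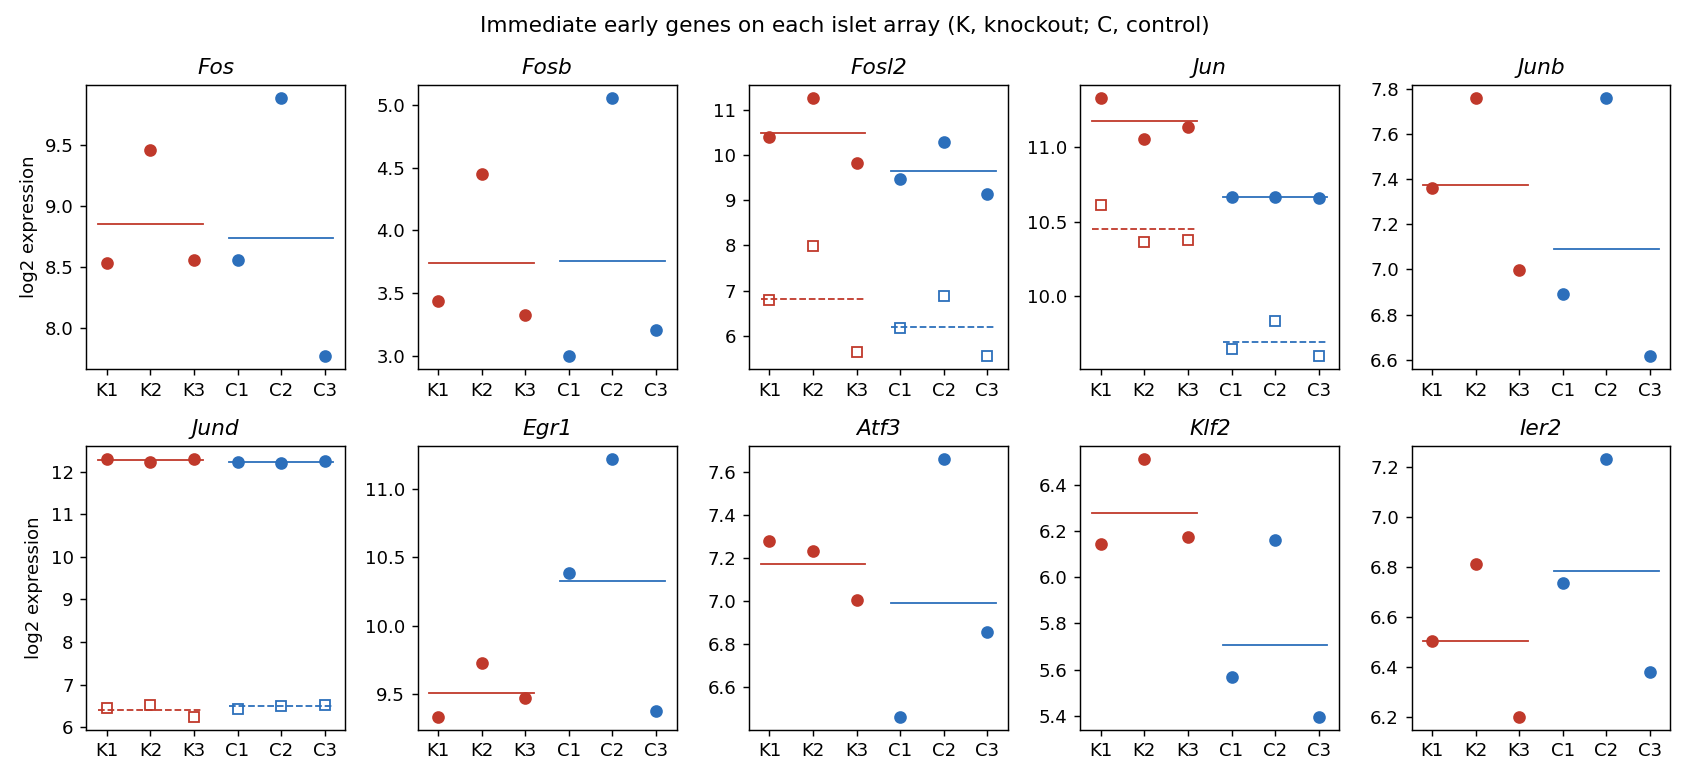
Log2 expression (vertical axis, with its own range for each gene) of the 10 genes on arrays labelled knockout 1 to 3 (K, red) and control 1 to 3 (C, blue). Each point is 1 array, open squares are a second, dimmer probe set, and lines are group means. Fos was highest on K2 (9.46) and C2 (9.88), while both Jun probe sets were higher on all K arrays than on any C array.

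Among the Fos family, Fos had log2 values of 8.53, 9.46 and 8.56 on arrays labelled knockout 1 to 3, against 8.56, 9.88 and 7.77 on controls 1 to 3. Knockout 2 and control 2 were the highest of their groups, control 3 was the lowest of all 6, and the groups overlapped. The means were 8.85 ± 0.53 in the arrays labelled knockout and 8.74 ± 1.07 in controls (SD, n = 3 each), a difference of 0.11 ± 0.53 (SE, limma, adjusted p = 0.957). That difference was 0.69 without control 2, and it turned to -0.19 without knockout 2, to -0.37 without control 3 and to -0.0038 with the acinar marker level as a covariate, so it has no settled direction. From the lowest to the highest array Fos ranged over 4.33-fold.

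Fosb, a close relative of Fos that is induced with it, had values of 3.44, 4.45 and 3.32 on arrays labelled knockout 1 to 3, against 3.00, 5.06 and 3.21 on controls 1 to 3. Again both second arrays stood alone, 2.10-fold above the other arrays labelled knockout and 3.87-fold above the other controls (geometric means). Its mean over the 6 arrays lay at percentile 27.6 of all probe sets, a dim level where the background of the array compresses folds, and no detection call was used here. The group difference was -0.018 ± 0.57 (adjusted p = 0.993) and changed sign in 8 of 13 alternative fits.

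Fosl2 encodes FRA2, a Fos relative with a slower and longer response. Its brighter probe set had 10.39, 11.26 and 9.82 on arrays labelled knockout 1 to 3, against 9.47, 10.29 and 9.14 on controls 1 to 3. The dimmer one had 6.79, 8.00 and 5.64 on arrays labelled knockout 1 to 3, against 6.17, 6.89 and 5.56 on controls 1 to 3. On both probe sets the second array was highest, array 1 in the middle and array 3 lowest within each group, and the groups overlapped. The arrays labelled knockout were higher by 0.86 ± 0.42 (adjusted p = 0.459) on the brighter and 0.60 ± 0.60 (adjusted p = 0.735) on the dimmer probe set, neither past the test. The brighter probe set differed by 0.47 without knockout 2 and by 1.19 without knockout 3. The dimmer one differed by 0.0071 without knockout 2, 1.19 without knockout 3, 0.94 without control 2 and 0.28 without control 3.

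Within the Jun family the 3 genes differed in pattern. Jun, the main partner of Fos in AP-1, had 11.33, 11.06 and 11.13 on arrays labelled knockout 1 to 3, against 10.66, 10.67 and 10.66 on controls 1 to 3. The second Jun probe set had 10.61, 10.36 and 10.38 on arrays labelled knockout 1 to 3, against 9.64, 9.83 and 9.60 on controls 1 to 3. On neither was knockout 2 the highest of its group, and on both the groups lay apart. The differences of 0.51 ± 0.11 (SE, adjusted p = 0.117) and 0.76 ± 0.12 (adjusted p = 0.0523) did not pass the threshold of 0.05. Over the 6 fits that each left out 1 array, the second probe set differed by 0.68 to 0.83, with adjusted p between 0.0691 and 0.192. It passed with median centring (adjusted p = 0.0381), among probe sets above the median level (adjusted p = 0.0283) and with a mean-dependent prior variance (adjusted p = 0.00959), where the first passed too (adjusted p = 0.0197). Adjusted p was 0.175 with the acinar covariate and 0.244 without knockout 2 and control 2.

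Junb, which often restrains Jun, had 7.36, 7.76 and 7.00 on arrays labelled knockout 1 to 3, against 6.89, 7.76 and 6.62 on controls 1 to 3. The second arrays were highest at almost the same level, array 3 lowest, and the difference was 0.28 ± 0.32 (adjusted p = 0.773). It was 0.091 without knockout 2, 0.47 without knockout 3, 0.18 without control 1, 0.62 without control 2 and 0.047 without control 3. Jund, the steadily expressed member of the family, had 12.30, 12.22 and 12.31 on arrays labelled knockout 1 to 3, against 12.24, 12.22 and 12.25 on controls 1 to 3. Its lowest and highest arrays differed by 1.07-fold, and near the top of the range differences are compressed. A second, dimmer Jund probe set ranged over 1.22-fold and differed by -0.080 ± 0.12 (adjusted p = 0.828), against 0.041 ± 0.096 (adjusted p = 0.903) on the first. Leaving out knockout 3 brought the dimmer one to 0.0011.

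Egr1 showed its variation in the controls. It had 9.34, 9.73 and 9.47 on arrays labelled knockout 1 to 3, against 10.38, 11.22 and 9.38 on controls 1 to 3. Controls 1 and 2 stood above all arrays labelled knockout, and control 3 fell among them. The spread was 0.20 in the arrays labelled knockout and 0.92 in controls (SD, n = 3 each). The difference of -0.81 ± 0.42 (adjusted p = 0.485) did not pass. It was -0.37 without control 2 (adjusted p = 0.702), and -1.29 without control 3 (adjusted p = 0.206).

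Atf3 likewise moved mostly among controls, with 7.28, 7.23 and 7.01 on arrays labelled knockout 1 to 3, against 6.46, 7.66 and 6.86 on controls 1 to 3. Control 2 was the highest of all 6 arrays and control 1 the lowest, so the arrays labelled knockout fell between them. The difference of 0.18 ± 0.29 (adjusted p = 0.851) turned to -0.086 without control 1 and was 0.52 without control 2 (adjusted p = 0.338).

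Klf2 had 6.14, 6.51 and 6.18 on arrays labelled knockout 1 to 3, against 5.57, 6.16 and 5.40 on controls 1 to 3. Control 2 overlapped the arrays labelled knockout, and controls 1 and 3 stood below them. The difference was 0.57 ± 0.22 (unadjusted p = 0.0358, limma adjusted p = 0.345). Klf2 is best known from endothelial cells. The 18 endothelial markers averaged 7.20, 7.35 and 7.26 on arrays labelled knockout 1 to 3, against 7.48, 6.77 and 7.13 on controls 1 to 3. They were lowest on control 2, where Klf2 was the highest of the controls. Between groups, 13 of 18 were higher under the knockout label, with a median difference of 0.20 and list means of 7.27 in the arrays labelled knockout and 7.13 in controls. Their part in the Klf2 values was not tested.

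Ier2 had 6.51, 6.81 and 6.20 on arrays labelled knockout 1 to 3, against 6.73, 7.23 and 6.38 on controls 1 to 3. In both groups the second array was highest and array 3 lowest. The groups overlapped and differed by -0.28 ± 0.25 (adjusted p = 0.701). The difference was -0.43 without knockout 2, -0.12 without knockout 3, -0.052 without control 2 and -0.48 without control 3.

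The group differences were set against those of the whole array. With adjusted p under 0.05 as the call, 0 of 13 member probe sets were called, and 0.897% of all probe sets (404 of 45037) were, 0.713% as higher under the knockout label. At an unadjusted p under 0.05, limma gave 3 of 13 (both Jun probe sets and Klf2), against 12.9% of all probe sets. The groups did not overlap on 2 of 13, both of Jun and both higher in the arrays labelled knockout, against 10.1% of all probe sets in that direction. The difference was above 0 on 9 of 13, against 46.7% of all probe sets. Per gene, taken at its brightest probe set, it was above 0 for 7 members and below 0 for 3, with a median difference of 0.15, beside 50.4% above 0 and a median of 0.0020 over all genes. With knockout 2 and control 2 left out, a setting chosen after seeing the data, 0 member probe sets were called.

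**Figure D2:**
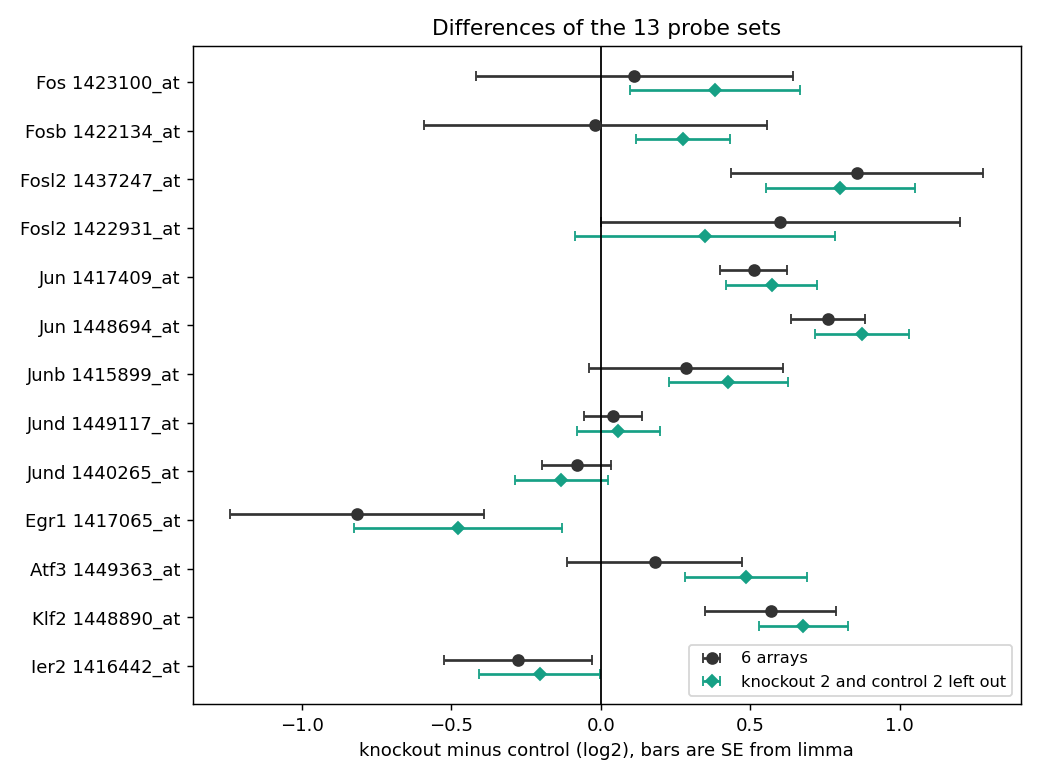
Difference between the arrays labelled knockout and control (horizontal axis, log2, with limma's SE as bars) for each of the 13 probe sets, with all 6 arrays (black circles) and with knockout 2 and control 2 left out (green diamonds). Both Jun probe sets lie near 0.51 and 0.76, with narrow bars, while Fos and Fosb have wide bars across 0 with all 6 arrays.

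The spread within groups was large for 7 of the 13 probe sets. Ranked against the 2001 probe sets nearest in mean level, the SD within groups lay at percentile 99.3 for Fos, 99.6 for Fosb, 99.6 and 99.2 for the brighter and dimmer Fosl2 probe sets, 99.6 for Egr1, 95.8 for Junb and 93.2 for Atf3. Ier2 lay at 81.9 and Klf2 at 67.8. The Jun probe sets lay at 55.0 and 62.3, and those of Jund at 8.6 and 8.8. All 7 with a percentile over 90 had control 2 as the highest control.

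Array 2 was the highest of its group in both groups for 8 of 13 member probe sets (Fos, Fosb, both of Fosl2, Junb, Egr1, Klf2 and Ier2), against 11.7% of all probe sets. Counted on 1 probe set per gene, this was 7 of 10 members, against 8.2% of all genes. Array 2 was singled out after the member values were seen, so its shares, here and below, describe the members and test nothing. Taken singly, control 2 was the highest control on 11 of 13 member probe sets and knockout 2 the highest array labelled knockout on 9 of 13, against 30.9% and 32.7% of all probe sets. The excess of array 2 over the mean of the other arrays of its group was 0.91 log2 units in the arrays labelled knockout and 1.72 in controls for Fos, 1.07 and 1.95 for Fosb, 1.15 and 0.99 for Fosl2, and 0.58 and 1.01 for Junb. It was 0.33 and 1.34 for Egr1, and 0.090 and 1.01 for Atf3, so these were high mainly on control 2. For the brighter Jun probe set it was -0.18 and 0.0038. Knockout 3 was the lowest array labelled knockout on 7 of 13 member probe sets, against 33.3% of all, and control 3 the lowest control on 9 of 13, against 28.9% of all. The labels do not say whether a replicate number marks a shared day or batch, so batch and number cannot be told apart. Over all probe sets, deviations from the group means correlated between same-numbered arrays at r of -0.054, 0.14 and 0.0045 for arrays 1, 2 and 3, and 0.14 was the highest of all 9 pairs across groups.

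**Figure D3:**
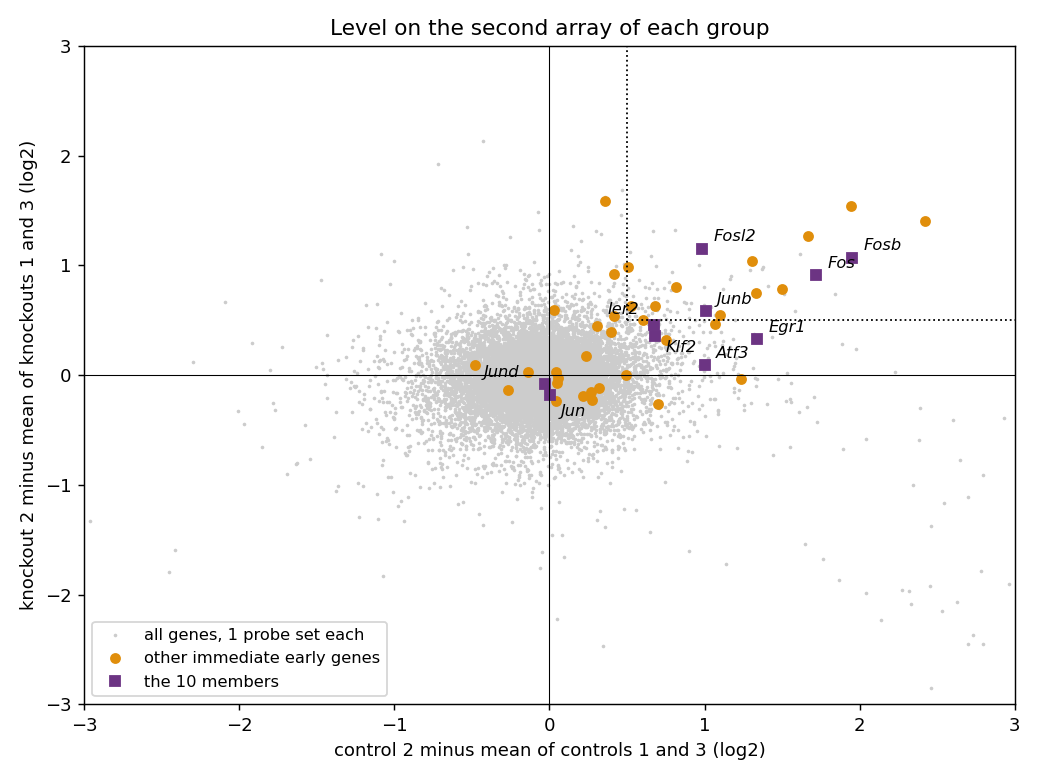
Excess of knockout 2 over the mean of knockouts 1 and 3 (vertical axis, log2) against that of control 2 over controls 1 and 3 (horizontal axis), 1 point per gene on its brightest probe set. Members are purple squares, other immediate early genes orange, all genes grey (3 genes lie beyond the axes), and the dotted corner marks an excess over 0.5 in both groups, where Fos, Fosb, Fosl2 and Junb lie, while Jun and Jund lie near the origin.

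An excess over 0.5 log2 units on array 2 of both groups was found on 5 of 13 member probe sets, against 1.52% of all, and, per gene, for 80 of 18193 genes, 0.44%, and 4 of the 10 members were among them (Fos, Fosb, Fosl2 and Junb). For comparison, the same excess on array 1 of both groups was found for 105 genes and on array 3 for 77. Members were not counted on those arrays, and array 2 was chosen after their values were seen. The list of 35 other immediate early and early response genes gave 12 of these 80, and the list of 18 genes of negative feedback on MAP kinases and AP-1 gave 3. Together the members and these lists hold 61 genes, of which 18 (29.5%) were among the 80, and they made up 22.5% of the 80.

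Many of the other immediate early genes were also highest on array 2. Of 35 with a probe set, 0 rose, 0 fell and 35 did not pass between groups, with 23 differences above 0 and 12 below (1.1% of all genes were called, 0.852% with a higher level under the knockout label). Array 2 was highest in both groups for 19 of 35, and 16, among them Egr2, Egr3, Egr4, Arc and Npas4, lacked this. Npas4, Arc and Egr4 were dim (percentiles 11.1, 38.7 and 49.5 of mean level), where a peak may not be seen. The brighter Rhob (percentile 92.2) and Klf10 (86.0) lacked it too. By the smaller of the excesses in the 2 groups, Nr4a2, Nr4a1, which encode orphan nuclear receptors, and Csrnp1 ranked highest. The genes in these last sentences were named after their values were seen. Nr4a1 had 6.52, 7.23 and 5.14 on arrays labelled knockout 1 to 3, against 5.56, 7.60 and 4.80 on controls 1 to 3. Nr4a2 had 8.90, 9.82 and 7.67 on arrays labelled knockout 1 to 3, against 7.93, 9.66 and 7.51 on controls 1 to 3. Both were highest on array 2 and lowest on array 3 in each group. The growth arrest gene Gadd45b differed most between groups, by 1.21 ± 0.50 (SE, adjusted p = 0.379), followed by Nr4a3 with 1.03 ± 0.46 (adjusted p = 0.412). The matricellular genes Ccn2 and Ccn1 differed by -1.01 ± 0.22 (adjusted p = 0.114) and -0.75 ± 0.46 (adjusted p = 0.55).

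Among feedback genes, which encode MAP kinase phosphatases and related brakes, 0 of 18 passed between groups, and array 2 was highest in both groups for 8. Dusp4, a nuclear MAP kinase phosphatase, had 7.69, 8.00 and 7.17 on arrays labelled knockout 1 to 3, against 8.43, 9.14 and 8.21 on controls 1 to 3. It combined the array 2 pattern with groups that did not overlap, as for 21.2% of all genes, and its difference of -0.97 ± 0.30 did not pass (adjusted p = 0.242). Spry1, a receptor tyrosine kinase antagonist, differed by -0.45 ± 0.15 (adjusted p = 0.295). Of 18 partner leucine zipper genes 0 passed and 4 had array 2 highest in both groups. The largest differences there were those of Jdp2, a repressor that dimerises with Jun (-0.57 ± 0.17, adjusted p = 0.237), and of the small Maf gene Maff (0.54 ± 0.22, adjusted p = 0.381), which is also on the list of other immediate early genes.

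Upstream regulators were highest on array 2 of both groups at a share near that of all genes. Of 19 genes for MAP kinases, serum response factor, its partners and CREB1, 0 passed between groups and 1 had array 2 highest in both. That is 5.3%, beside 8.2% of all genes. Their mean level was 8.71, 8.74 and 8.71 on arrays labelled knockout 1 to 3, against 8.80, 8.60 and 8.63 on controls 1 to 3. Heat shock genes, another stress response, also gave 0 of 12 past the test and 1 of 12 (8.3%) with array 2 highest in both groups. The mean over the 10 members was 8.26, 8.65 and 8.10 on arrays labelled knockout 1 to 3, against 8.00, 8.82 and 7.77 on controls 1 to 3, and that of the other immediate early genes was 8.20, 8.49 and 7.92, against 7.83, 8.43 and 7.81.

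**Figure D4:**
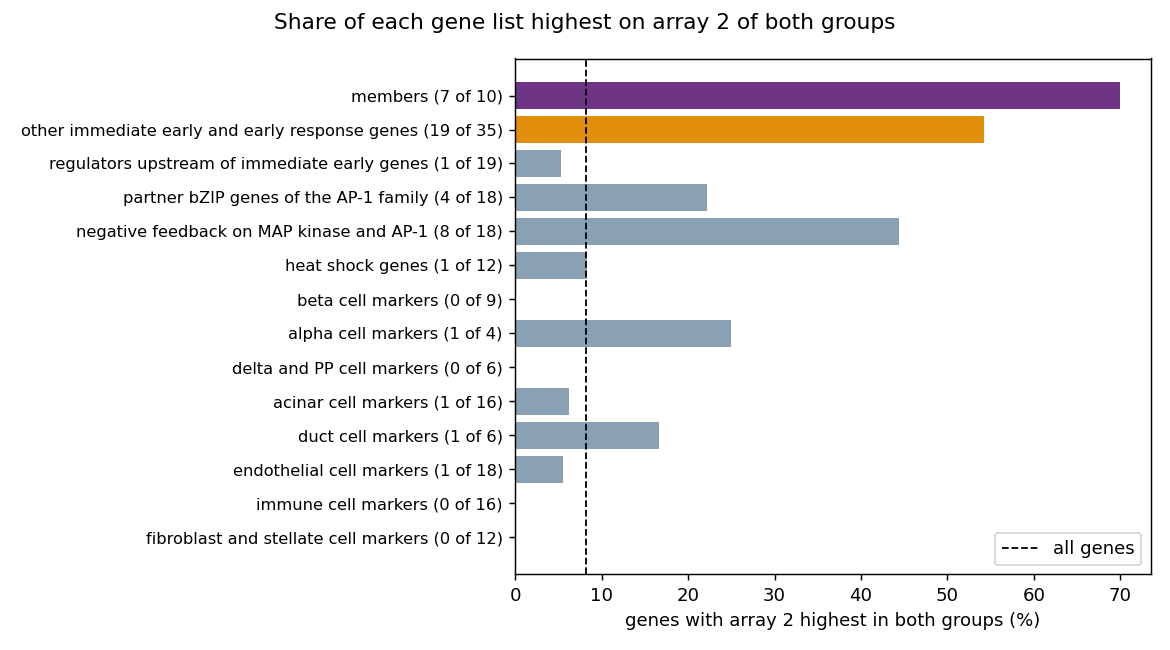
Share of the measured genes of each list (horizontal axis, percent) that were highest on array 2 in both groups, with the count beside each name. The dashed line is the share over all genes, 8.2%. The 10 members (7 genes), the other immediate early genes (19 of 35) and the feedback genes (8 of 18) have the longest bars.

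Markers of other cells were compared with the members across arrays. Acinar markers were on average high on controls 2 and 3 and low on knockouts 2 and 3, whereas the mean of the members was highest on array 2 and lowest on array 3 of each group. Jun, Jund and Atf3 were not highest on array 2 of both groups. Fos, Fosb, Egr1 and Klf2 were, but they were not lowest on array 3 of both. Array 2 was highest in both groups for 1 of 16 acinar, 1 of 18 endothelial, 0 of 16 immune, 0 of 12 fibroblast and stellate, 0 of 9 beta, 1 of 4 alpha, 0 of 6 delta and PP and 1 of 6 duct markers. The share over all genes was 8.2%, and lists this short cannot be told apart from it. Single genes of other cells were among the 80 with an excess on array 2 of both groups: the duct marker Krt19 (0.74 in the arrays labelled knockout and 1.51 in controls) and the endothelial marker Cldn5 (0.79 and 0.51). So were the leukocyte genes S100a9 (0.87 and 1.16), Cd48 (0.98 and 1.38) and Igsf6 (0.77 and 0.78), which are on no list and are named after their values were seen. Krt19 was nearly as high on control 3 (9.21) as on control 2 (9.32), with 6.40 on control 1. Every endothelial marker other than Cldn5 was lower on control 2 than the mean of controls 1 and 3. The part of other cells in the array 2 pattern was not tested. Immune markers averaged 6.16, 6.05 and 6.32 on arrays labelled knockout 1 to 3, against 5.86, 5.63 and 5.79 on controls 1 to 3, so the means of this list lay apart as the groups did for Jun. Gene by gene, 12 of 16 differences were above 0 and 4 below. Without overlap, 7 of 16 were higher and 0 lower, against 10.1% of all probe sets higher. The list counts here are per gene, and per gene 21.2% of all genes did not overlap, in either direction. The mean of the delta and PP markers also lay apart, with 10.51 to 10.59 on arrays labelled knockout against 11.14 to 11.32 on control arrays. Of these markers, 6 of 6 were lower without overlap, against 8.85% of all probe sets. The alpha markers gave 9.12 to 9.22 on arrays labelled knockout against 9.64 to 9.86 on control arrays, and 4 of 4 were lower without overlap, beside the same 8.85%. The part of these cells in the Jun difference was not tested. The markers past the test and lower under the knockout label were Slc30a8 of the beta list (-0.82), and Ghsr (-1.17) and Rbp4 (-0.73) of the delta and PP list. Those higher were Cftr of the duct list (3.92) and Laptm5 of the immune list (1.34). Of the 6 duct markers, 2 were higher and 4 lower. Over all genes, 1.1% passed.

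**Figure D5:**
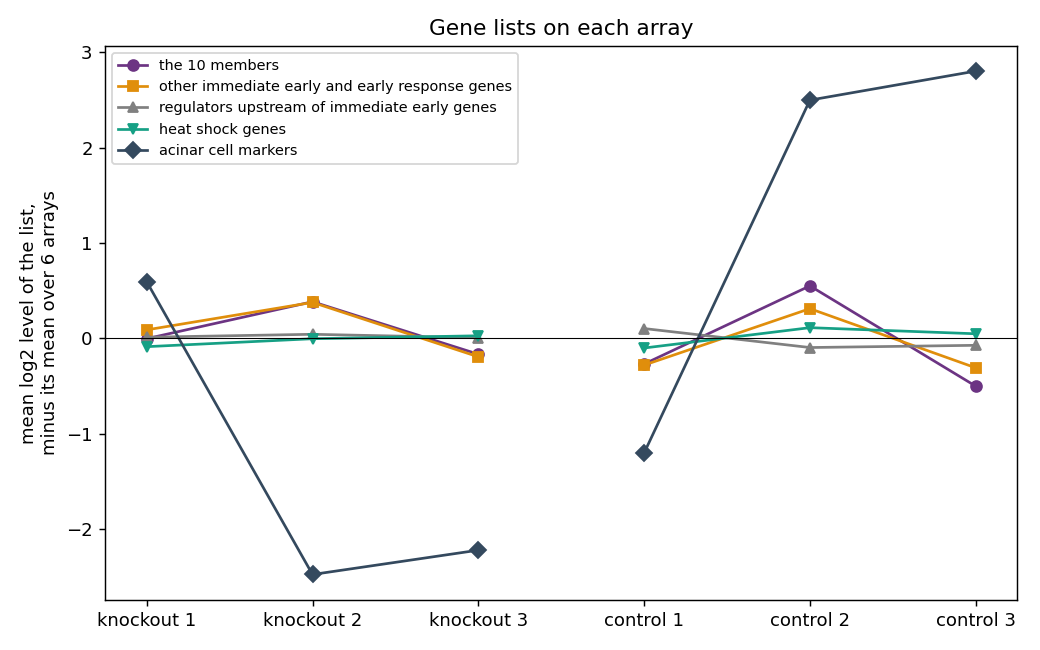
Mean log2 level of 5 gene lists on each array, minus the mean of that list over the 6 arrays (vertical axis), for arrays labelled knockout 1 to 3 and control 1 to 3 (horizontal axis). The members (purple) and the other immediate early genes (orange) peak on array 2 of both groups, and the acinar markers (dark blue) peak on knockout 1 among the arrays labelled knockout and on control 3 among controls.

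Genes nearest to 3 members in profile were sought by the mean absolute difference over the 6 arrays between log2 values centred on each gene's own mean, among 11073 other genes above the median level. The nearest to Fos were Irs2, an adaptor of the insulin receptor, and the kinase gene Sik1 (0.20 each), then 1810055G02Rik and Errfi1, an inhibitor of the epidermal growth factor receptor (0.26 each). Irs2 had 7.38, 8.24 and 7.49 on arrays labelled knockout 1 to 3, against 7.79, 8.34 and 6.89 on controls 1 to 3. Among members, Fosb (0.25) and Junb (0.27) came closest to Fos, and only 2 and 5 other genes were nearer to it than they were. Jun (0.63) and Jund (0.61) were farther from Fos than 6832 and 5652 other genes. The nearest to Jun were Gss, Cux2, Scamp5 and Cryz (0.041 to 0.055), and the nearest to Egr1 were Snhg14, Lrrc39, Ppp4r4 and Ica1l (0.24 to 0.29). With 6 arrays, these likenesses describe the arrays only.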

How the data were processed

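The data are 6 arrays, 3 per group. Per the labels, RNA was amplified to biotin-labelled cRNA and hybridised to 1-colour Affymetrix arrays, and RMA is named in the submitters' processing notes, with no version. The deposited values are log2 expression per probe set, as the authors normalized them across arrays. Of 45101 probe sets, 64 manufacturer controls were left out. In the platform annotation 34945 probe sets had 1 symbol, 932 several and 9160 none listed, and 34741 were matched to RefSeq (GRCm38.p6) by gene identifier. The probe set with the highest mean stood for a gene in counts over genes.

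The difference between groups was fitted by linear models on log2 values (limma 3.58.1, R 4.3.3), with moderated variances, two-sided tests and Benjamini-Hochberg adjustment over 45037 probe sets and a threshold of 0.05. The fit was tested on simulated data. Differences are labelled knockout minus control, with limma's SE. Members and the 13 other gene lists were chosen with earlier results of these data known. Of 220 entries, 21 lacked a probe set of their own. Named from the lists were genes past the threshold and those with the largest differences (4 other immediate early, 2 feedback, 2 partner genes). Alternatives were leaving out arrays, other scalings, a filter on low values, another prior variance, the replicate number as a block, an acinar covariate and the mean of a gene's probe sets. Scan dates were not used here. The number of arrays limits the precision.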

Additional observations from a re-analysis of the deposited data

How the results depend on the processing

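No member probe set was called in 11 of 14 alternative settings, and 1, 1 and 2 (all of Jun) were called with median centring, above the median probe set and with a mean-dependent prior. The median difference of the members kept its sign, between 0.033 and 0.57 with 1 array left out. Signs turned for 4 probe sets. Fos lay between -0.37 and 0.69 with 1 array left out and at -0.0038 with the acinar covariate. Fosb lay between -0.40 and 0.63 with 1 array left out, at 0.035 with median centring, 0.031 with quantile normalization again, 0.26 with the acinar covariate, 0.74 against control 1 alone and 0.28 without knockout 2 and control 2. The dimmer Jund probe set lay between -0.14 and 0.0011 and Atf3 between -0.086 and 0.52 with 1 array left out. Over all probe sets 404 calls became 152 to 783 with 1 array left out (783 when control 1 was dropped, 239 for control 2, 152 for control 3, 161 for knockout 1, 161 for knockout 2 and 209 for knockout 3), 887 with the mean-dependent prior, 105 with the acinar covariate, 54 against control 1 alone, which is assumed to vary like the other arrays, and 48 without both second arrays (chosen after seeing the data). The replicate block gave 246 calls and 0 for members. With it the SE of the brighter Fosl2 probe set fell from 0.42 to 0.12 (difference 0.86, limma adjusted p = 0.0803). The labels do not say what the replicate numbers share. Deviations of same-numbered arrays correlated above 0.1 for array 2 alone, and knockout 3 with control 1 gave 0.105. A correlation over all probe sets cannot show whether the numbers mark a batch that touches few genes. The main fit did not pair the arrays, as the labels name no batch. The causes were not tested. RMA values carry no detection call, which limits dim probe sets such as Fosb.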

Other observations

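Genes outside the lists also stood high on array 2 of both groups. Such an excess is taken over the mean of the other arrays of a group and does not make array 2 the highest. Amy1, for example, had 6.83 on control 2 and 6.86 on control 3. Of the 80 genes with an excess over 0.5 log2 units in both, 62 were in none of the 3 lists of immediate early and feedback genes. They include the circadian repressor Bhlhe40 (10.13, 10.72 and 9.64 on arrays labelled knockout 1 to 3, against 9.17, 9.77 and 9.04 on controls 1 to 3), the GTPase genes Gem and Rasd1, and the acute phase genes Lcn2, Saa1 and Saa3, named after their values were seen. Lcn2, an iron-siderophore binding protein, had 10.44, 10.72 and 9.67 on arrays labelled knockout 1 to 3, against 8.64, 9.58 and 8.78 on controls 1 to 3. Gem, an inhibitor of voltage-gated calcium channels, had 9.62, 10.23 and 9.37 on arrays labelled knockout 1 to 3, against 5.61, 7.86 and 6.43 on controls 1 to 3, and its groups did not overlap (adjusted p = 0.0616, limma).

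The sequence TGACG was present before the start of 26 of the 63 among these 80 genes that have a RefSeq promoter (41.3%) and of 15 of 25 other immediate early genes (60%), against 25.9% of the 14452 genes on the array with a promoter. The sets overlap, as 12 genes on the list of other immediate early genes are among the 80. The members Fos, Fosb, Fosl2 and Junb are among the 80 too. All are counts of letters in a window, with no test.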
